A study of Canis lupus familiaris with 6 samples.

Results

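The hemoglobin subunit genes were those genes of the deposited expression table whose description contained the words Hemoglobin subunit, and 8 of the 31512 genes in the table met this condition. They comprised 1 alpha gene, 3 beta genes, 1 mu gene (HBM), 1 epsilon gene and 2 zeta genes. Their levels were measured by RNA-Seq of whole blood from 6 healthy adult Beagle dogs, sampled on day 30 of feeding. The control group held 3 dogs given a snack without CPP-Se, and the CPP-Se group held 3 dogs given the same kind of snack to which CPP-Se had been added, selenium chelated by casein phosphopeptides. Both groups received the same maintenance food, and each dog gave 1 library. The paper's feeding trial had more dogs than these, and how those sequenced were chosen is not given in the sources used here. No batch was named in the labels, and p-values measure the spread between these dogs only. The comparison asked whether the supplement changed the blood transcriptome, and here it was read for the genes that encode the oxygen-carrying protein of the red cell.

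Hemoglobin is a tetramer built from equal numbers of alpha-type and beta-type globin chains, each holding a heme group that binds oxygen. Mammals keep the alpha-type genes (zeta, mu, alpha) and the beta-type genes (epsilon, beta) in separate clusters, from which embryonic chains are made early in development and adult chains later. Mature dog red cells have no nucleus, and the globin mRNA in circulating blood is carried mainly by reticulocytes, the youngest red cells. In bulk blood, fewer cells of a type and less RNA per cell cannot be told apart.

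Values of a group are listed in the order of replicates 1, 2 and 3. Hemoglobin genes held 48.7%, 53.1% and 49.2% of the reads on genes across the control animals. Across the CPP-Se animals they held 54.8%, 36.6% and 55.9%. These reads were recovered from the deposited values, which are FPKM (fragments scaled by gene length and by library size). CPP-Se replicate 2 was the lowest of all dogs and the other 5 dogs lay close together, so the groups overlapped. The means were 50.3% ± 2.40 (SD, n = 3) in the control group and 49.1% ± 10.8 (SD, n = 3) in the CPP-Se group, a difference of -1.26 percentage points with a standard error of 6.42, and the exact permutation test gave p = 1 (two-sided). Without CPP-Se replicate 2 the difference was 4.997 percentage points. With 3 dogs against 3 this test cannot go below 0.1. The exact binomial 95% intervals of the shares were between 0.0665 and 0.0763 percentage points wide and cover counting error only.

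**Figure D1:**
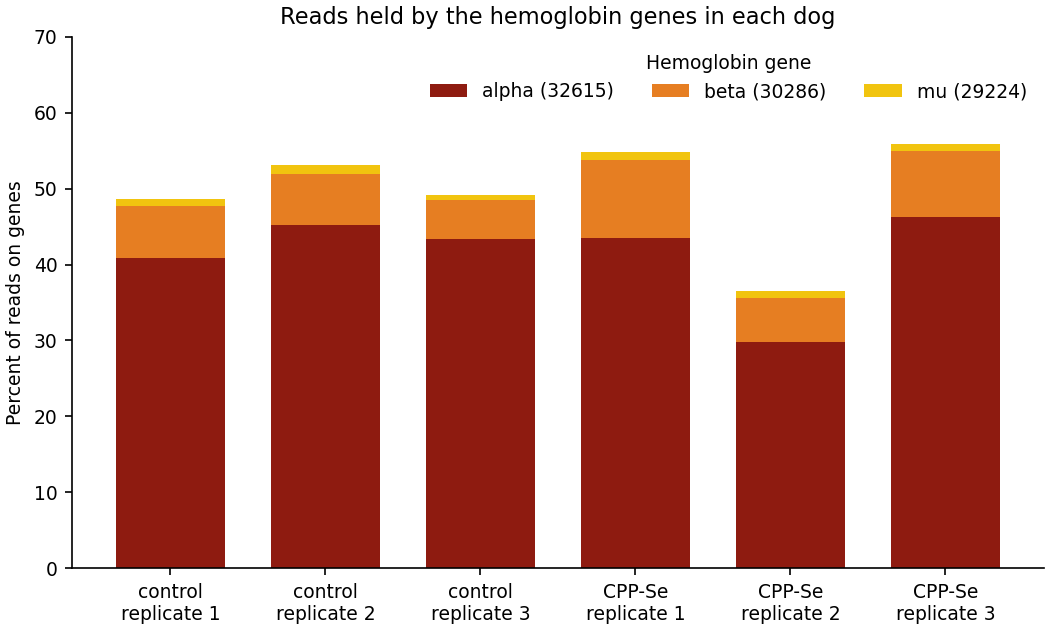
Percent of the reads on genes (vertical axis) held by the alpha gene ENSCAFG00000032615, the beta gene ENSCAFG00000030286 and the mu gene ENSCAFG00000029224 (stacked colours) in each dog. The alpha gene takes most of every bar, and CPP-Se replicate 2 has the shortest bar with 29.8% on the alpha gene; the other 5 hemoglobin genes are too low to be seen on this axis.

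CPP-Se replicate 2 stood apart in its scaling as well. The library size implied by its FPKM was 1.65 times its reads on genes, against 0.882 to 1.05 times in the other dogs, so a hemoglobin gene's FPKM in that dog was lower, relative to its share of reads on genes, than in the others. Its FPKM of the alpha gene was 0.344 to 0.456 of that of each other dog, and its share of reads was 0.644 to 0.729 of theirs. Reads on genes ranged from 6598173 to 8067034 per dog, and those outside the hemoglobin genes from 3061789 to 5117890, the most being in CPP-Se replicate 2. The implied library size of that dog was 13336023. With the same geometric mean over the dogs, size factors from median ratios of reads gave 13231215 and all reads on genes 8526701. In the other dogs too the implied size lay near that from median ratios.

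The order of the levels was nearly the same in all dogs, as the plot of FPKM by gene shows. The alpha gene ranked 1 and the beta gene ENSCAFG00000030286 ranked 2 among all genes of the table in each of the 6 dogs. HBM ranked between 3 and 7. By the mean FPKM over the dogs HBM ranked 4, with FTL, the light chain of the iron store ferritin, just above it at 6852 against 6811 FPKM, a gap smaller than the spread of either gene between dogs. The beta gene ENSCAFG00000029568 came next among the hemoglobin genes, between rank 122 and rank 399 of the table. The epsilon gene and the zeta gene on chromosome 6 followed at a mean of 2.01 and 1.28 FPKM and changed places between dogs, the zeta gene being the higher in control replicate 1 only. The last 2 genes lay below a mean of 1 FPKM.

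**Figure D2:**
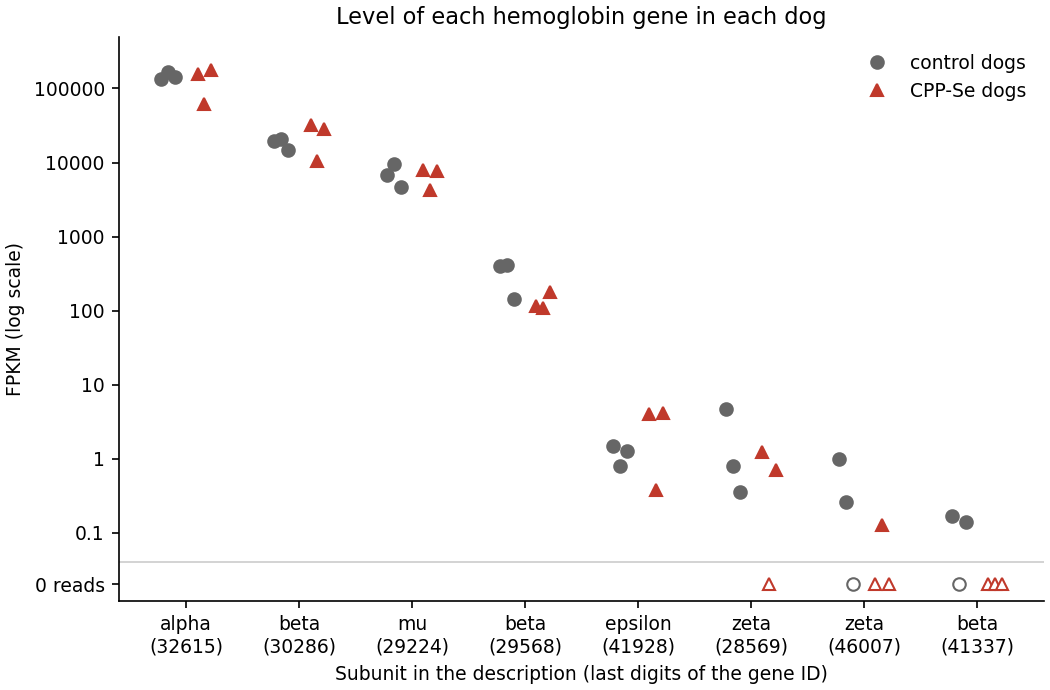
FPKM of the 8 hemoglobin genes (vertical axis, log scale, open symbols below the line for 0 reads) in the 3 control dogs (circles) and the 3 CPP-Se dogs (triangles). The alpha gene lies between 61787 and 179828 FPKM and the last 3 genes lie at or below 4.61 FPKM.

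The alpha gene, ENSCAFG00000032615, encodes the alpha chain of adult hemoglobin and was the most abundant transcript of the blood. It was placed at chr6:40235272-40329010 on the minus strand of the dog genome of Ensembl release 100, a span of 93739 bases for a gene length of 2918 bases. Its level was 135444, 166009 and 141498 FPKM across the control animals, and 157982, 61787 and 179828 FPKM across the CPP-Se animals. The CPP-Se group thus held both the highest and the lowest dog. The log2 fold change, CPP-Se minus control on the log2(FPKM + 1) scale, was -0.29 with a standard error of 0.62 and an adjusted p of 0.863 (limma with Benjamini-Hochberg adjustment over all genes tested). Its 95% interval ran from -1.73 to 1.16, and without CPP-Se replicate 2 the log2 fold change was 0.20. As a share of the reads on genes, the alpha gene held 40.9%, 45.2% and 43.3% across the control animals and 43.5%, 29.8% and 46.3% across the CPP-Se animals.

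The span of the alpha gene covers other genes, which limits what its reads can be assigned to. LUC7L, which codes for a protein of RNA splicing, lies inside it on the opposite strand at a mean of 7.69 FPKM, and FAM234A shares 31183 bases with it on the same strand at a mean of 20.98 FPKM. In the RefSeq annotation of another dog assembly, UU_Cfam_GSD_1.0, 6 protein-coding genes are listed between LUC7L and NPRL3, among them HBQ1 and HBM, and which of them gave the reads of the single alpha gene of the table cannot be told from these values. How reads shared by several genes were counted is not given in the sources used here.

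HBM, the mu gene, ENSCAFG00000029224, is an alpha-type globin gene of the same cluster, at chr6:40330773-40332207 on the minus strand. It was at 6688, 9553 and 4673 FPKM across the control animals, and at 7992, 4190 and 7768 FPKM across the CPP-Se animals. Control replicate 3 and CPP-Se replicate 2 were low and the groups overlapped. Its log2 fold change was -0.07 with a standard error of 0.42 (limma adjusted p = 0.957), with a 95% interval from -1.04 to 0.91. It turned to 0.24 without CPP-Se replicate 2, to 0.19 without control replicate 2 and to 0.082 when libraries were scaled by all reads on genes. Relative to the reads on genes, HBM held 0.931%, 1.20% and 0.659% across the control animals and 1.02%, 0.932% and 0.922% across the CPP-Se animals, so that the share of CPP-Se replicate 2 was close to that of its group.

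The main beta gene, ENSCAFG00000030286, encodes a beta chain of adult hemoglobin and lies at chr21:28178124-28206005 on the minus strand, a span of 27882 bases for a gene length of 3398 bases. It was at 19442, 21033 and 14755 FPKM across the control animals, and at 31936, 10346 and 28746 FPKM across the CPP-Se animals. CPP-Se replicates 1 and 3 were above every control dog and CPP-Se replicate 2 was below them all. The log2 fold change was 0.22 with a standard error of 0.52 (limma adjusted p = 0.878) and a 95% interval from -0.998 to 1.43. Without CPP-Se replicate 2 it was 0.73 and without CPP-Se replicate 1 it was -0.08. Its share of reads on genes was 6.83%, 6.67% and 5.26% across the control animals and 10.2%, 5.81% and 8.62% across the CPP-Se animals.

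Nested in the span of this gene, on the plus strand, lay all 3 other members on chromosome 21. The short beta gene ENSCAFG00000029568, with a gene length of 537 bases at chr21:28181549-28182932, was at 396, 419 and 144 FPKM across the control animals. Across the CPP-Se animals it was at 115, 107 and 179 FPKM. Control replicates 1 and 2 were the highest dogs, while control replicate 3 lay among the CPP-Se dogs, so the groups overlapped. The means were 319 ± 153 FPKM (SD, n = 3) in the control group and 134 ± 39.1 FPKM (SD, n = 3) in the CPP-Se group. Its log2 fold change was -1.14 with a standard error of 0.43, an unadjusted p of 0.0308 and an adjusted p of 0.269 (limma), and it did not pass the thresholds of an adjusted p under 0.05 and a fold of at least 1.5. Under limma-voom with sample quality weights, which was chosen after the data were seen, its log2 fold change was -1.43 with an adjusted p of 0.00410, past the thresholds together with 6.98% of all genes tested; its adjusted p ranged from 0.00410 to 0.578 over 17 alternatives.

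The reads behind the short beta gene were 1450, 1434 and 620 across the control animals and 397, 767 and 587 across the CPP-Se animals. The main beta gene, on the other strand of the same bases, had between 403053 and 694811 reads per dog. Strand use in the counting is not given in the sources used here, so reads of the shared bases cannot be assigned to either gene, and the part of such reads in the change of the short gene was not tested. Per 100 reads of the main beta gene, the short gene had 0.322, 0.314 and 0.154 reads across the control animals and 0.0571, 0.164 and 0.0982 reads across the CPP-Se animals. The 2 values nearest each other across the groups, 0.154 and 0.164, crossed. The log2 ratio of the short to the main beta gene differed by -1.36 with a standard error of 0.56 (exact permutation test, two-sided, p = 0.2).

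The third beta gene, ENSCAFG00000041337 at chr21:28179815-28180902 on the plus strand, had 1, 0 and 1 read across the control animals and 0 reads in each CPP-Se dog. A count of 0 allows up to 3 reads, or between 0.256 and 0.557 FPKM of this gene across the CPP-Se animals. The gene was below the filter for testing, and its difference was not detectable at this depth.

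The epsilon gene, ENSCAFG00000041928, encodes the beta-type chain of embryonic hemoglobin and lies at chr21:28194200-28205596 on the plus strand. It had 4, 2 and 4 reads across the control animals and 10, 2 and 10 reads across the CPP-Se animals, which made 1.49, 0.798 and 1.27 FPKM against 3.97, 0.382 and 4.16 FPKM. CPP-Se replicates 1 and 3 were the highest and CPP-Se replicate 2 the lowest. The log2 fold change was 0.60 with a standard error of 0.50 (limma adjusted p = 0.601), and 1.23 without CPP-Se replicate 2 (adjusted p = 0.135). It was 0.30 without CPP-Se replicate 1 and 0.28 without CPP-Se replicate 3. At 2 to 10 reads per dog the counting error alone is large.

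The zeta genes encode the alpha-type chain of embryonic hemoglobin. The zeta gene on chromosome 6, ENSCAFG00000028569 at chr6:40331702-40343692 on the minus strand, had 44, 7 and 4 reads across the control animals and 11, 0 and 6 reads across the CPP-Se animals. Control replicate 1 stood above all other dogs at 4.61 FPKM, and CPP-Se replicate 2 was listed at 0, which allows up to 0.161 FPKM. The log2 fold change was -0.61 with a standard error of 0.57 (limma adjusted p = 0.635). It was -0.29 without CPP-Se replicate 2 and -1.02 without control replicate 3, and without control replicate 1 the gene fell below the filter. With a pseudocount of 0.1 FPKM it was -1.39 (limma adjusted p = 0.625), and in limma-voom -1.85 (adjusted p = 0.659). This gene shares 506 bases with HBM on the same strand, and HBM had at least 50523 reads in every dog. The zeta gene on the unplaced scaffold JH373470.1, ENSCAFG00000046007, had 4, 1 and 0 reads across the control animals and 0, 1 and 0 reads across the CPP-Se animals and was not tested. Epsilon and zeta genes together made 1.02 to 16.2 reads in every 1000000 hemoglobin reads, the highest in control replicate 1 and the lowest in CPP-Se replicate 2.

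In all, 6 of the 8 hemoglobin genes had a mean of at least 1 FPKM and were tested, and 0 of them passed the thresholds in limma. Of all 9847 genes tested, 0.0305% passed (3 genes). At an unadjusted p under 0.05 stood 1 of the 6, the short beta gene, against 16.0% of all genes tested, and limma-voom without weights called 0 of the 6. The groups did not overlap in FPKM for 0 of the 6, against 23.0% of all genes tested. The median log2 fold change was -0.18 over the 6 genes and -0.0043 over all genes tested. The 95% intervals of the 3 abundant genes span more than a 1.5-fold change in both directions, so a change of that size was not detectable with these dogs.

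**Figure D3:**
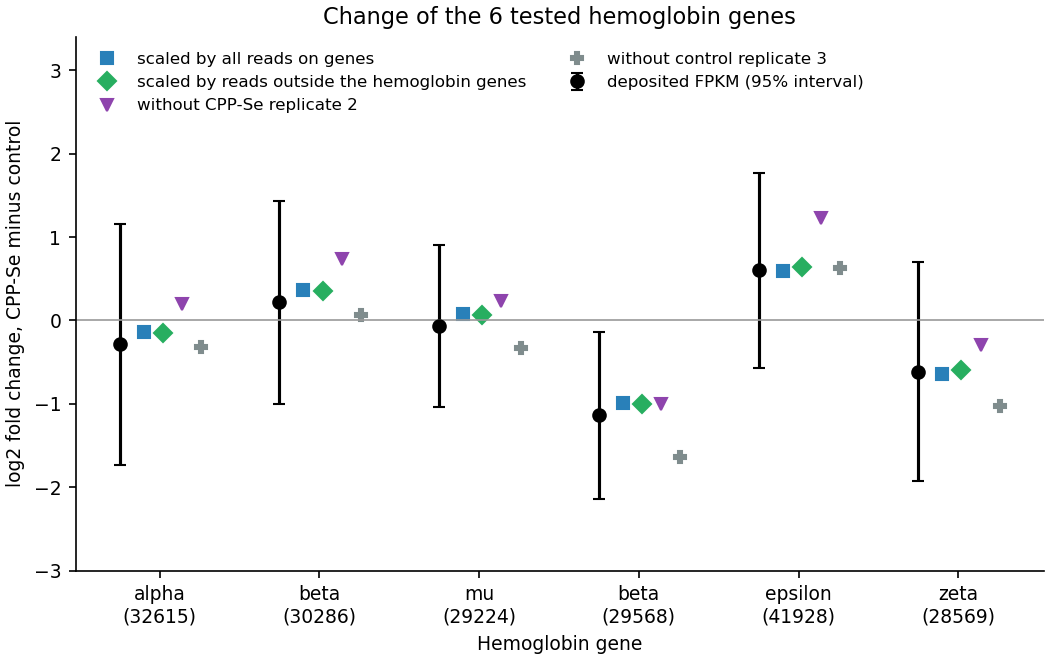
log2 fold change, CPP-Se minus control (vertical axis), of the 6 tested hemoglobin genes from the deposited FPKM (black circles with 95% intervals), and under 4 other settings (coloured symbols). Only the interval of the beta gene ENSCAFG00000029568 leaves out 0 before adjustment (-2.14 to -0.14), and all 6 genes move upward when CPP-Se replicate 2 is left out.

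Ratios of genes within a library do not depend on how libraries are scaled, and the groups separated in the balance of beta-type to alpha-type transcripts. Beta-type genes (beta and epsilon) held 14.1%, 12.6% and 10.7% of the hemoglobin reads across the control animals. Across the CPP-Se animals they held 18.7%, 15.9% and 15.4%. Every CPP-Se dog was above every control dog, CPP-Se replicate 2 included. The means were 12.5% ± 1.70 (SD, n = 3) and 16.7% ± 1.76 (SD, n = 3). Among single genes, the groups did not overlap in FPKM for 23.0% of all genes tested, and no such share was formed for ratios.

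The log2 ratio of beta-type to alpha-type reads was higher in the CPP-Se group by 0.50 with a standard error of 0.17, which is 1.41-fold. The exact permutation test gave p = 0.1 (two-sided), the smallest that 3 dogs against 3 allow, so the difference could not pass 0.05. The main beta gene spans the other beta genes of the table, and as with the alpha gene, which globin copies gave its reads cannot be told from these values. Leaving out each dog in turn gave values from 0.38 to 0.60, and FPKM in place of reads gave 0.48. Per length, the main beta gene was at 14.4%, 12.7% and 10.4% of the FPKM of the alpha gene across the control animals and at 20.2%, 16.7% and 16.0% across the CPP-Se animals. The alpha gene therefore stood far above the beta gene in every dog on both scales.

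Each gene was also set over all hemoglobin reads, for 5 genes. The alpha gene was lower by a log2 ratio of -0.08 with a standard error of 0.03, and the main beta gene was higher by 0.43 with a standard error of 0.14. Neither overlapped between the groups, against 23.0% of all genes tested without overlap in FPKM. Both had an exact permutation p of 0.1 and a Benjamini-Hochberg adjusted p of 0.25 over the 5 genes. These 2 genes held nearly all hemoglobin reads in every dog, so both values restate the ratio of beta-type to alpha-type reads and are not separate results. HBM overlapped, with a difference of 0.14 and a standard error of 0.29 (exact permutation p = 0.7, adjusted p = 0.7). The short beta gene overlapped as well, with -0.93 and a standard error of 0.59 (exact permutation p = 0.2, adjusted p = 0.333). The epsilon gene differed by 0.90 with a standard error of 0.75 (exact permutation p = 0.3, adjusted p = 0.375). Per 100 reads of the alpha gene, HBM had 2.28, 2.65 and 1.52 reads across the control animals and 2.33, 3.13 and 1.99 reads across the CPP-Se animals, so the mu gene kept no separate order by group.

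**Figure D4:**
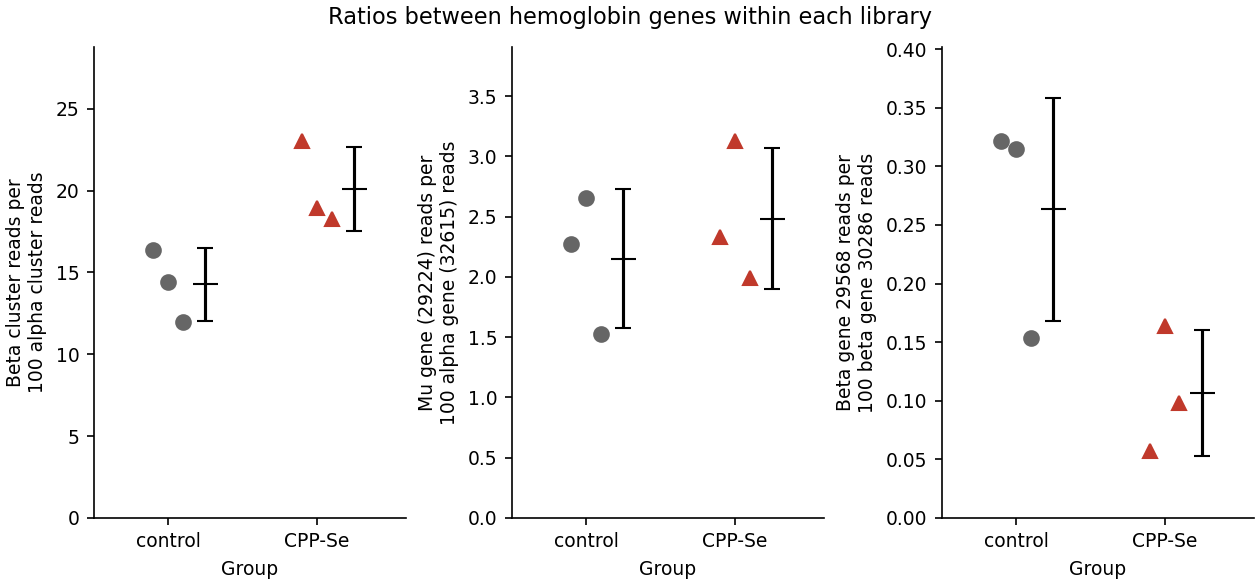
Ratios of reads within each library for the control dogs (circles) and the CPP-Se dogs (triangles), with the mean and SD of 3 dogs beside them. Beta-type reads per 100 alpha-type reads (left) lie between 11.98 and 16.4 across the control animals and between 18.3 and 23.0 across the CPP-Se animals; mu over alpha (middle) and the short over the main beta gene (right) overlap.

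The other transcripts of the red cell were read from lists of genes by role, and 0 genes of any list passed the thresholds in limma. Of the 68 genes tested in these lists, which include 6 genes of hemoglobin clearance and heme breakdown that other cells express, limma-voom called 0, and 8 were called when sample quality weights were added to it, 1 of them the macrophage receptor CD163; of the 29 tested markers of other blood cells these called 2 and 12. Of all genes tested, they called 0.508% and 6.98%. The 17 genes of the red cell membrane and its skeleton had a median log2 fold change of 0.03, with 9 above and 8 below 0 and 5 at an unadjusted p under 0.05, which 16.0% of all genes tested reached. The most abundant were DMTN, which bundles actin in the membrane skeleton, EPB41, which ties spectrin to actin, and the surface protein ICAM4. Their control and CPP-Se means were 246 ± 62.4 and 280 ± 162 FPKM for DMTN, 150 ± 61.1 and 226 ± 133 FPKM for EPB41, and 83.5 ± 16.2 and 80.1 ± 25.9 FPKM for ICAM4 (SD, n = 3). CPP-Se replicate 3 was the highest dog in all 3.

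Of 14 tested genes of heme synthesis and its iron supply, 0 had an unadjusted p under 0.05, against 16.0% of all genes tested, and their median log2 fold change was 0.11. ALAS2, the enzyme that starts heme synthesis in red cell precursors, was at 1640 ± 609 FPKM among controls and 1601 ± 661 FPKM with CPP-Se (SD, n = 3). SLC25A39, a mitochondrial carrier, was at 3466 ± 578 and 2822 ± 1202 FPKM (SD, n = 3). CPP-Se replicate 2 was the lowest dog for both, as for the alpha gene. Summed hemoglobin FPKM over the summed FPKM of this list was 29.3 in CPP-Se replicate 2, within the 28.9 to 37.7 of the other dogs. Over the membrane list the same ratio was 164 in that dog, below the 171 to 265 of the others, and over the hemoglobin partners it was 33.3, below the 55.6 to 204 of the others.

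Among the globin gene regulators, 13 genes were tested, with 3 above and 10 below 0 and a median log2 fold change of -0.12. NFE2, a factor that binds the control regions of the globin clusters, was at 669 ± 132 FPKM among controls and 480 ± 129 FPKM with CPP-Se (SD, n = 3). GATA1, the master factor of red cell development, was at 68.9 ± 17.7 and 64.4 ± 15.9 FPKM (SD, n = 3). LMO2, a bridging protein of the same complexes, was at 55.5, 55.0 and 55.9 FPKM across the control animals and 20.1, 30.0 and 24.8 FPKM across the CPP-Se animals. Its groups did not overlap, as for 23.0% of all genes tested, with a log2 fold change of -1.14, a standard error of 0.19 and an adjusted p of 0.138 (limma).

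Of the 9 tested partners of hemoglobin in the red cell, 6 were above and 3 below 0, with a median of 0.07. AHSP, the chaperone that holds free alpha chains until they pair with beta chains, was at 571, 1104 and 194 FPKM across the control animals and 608, 1329 and 1022 FPKM across the CPP-Se animals. Its highest level was in CPP-Se replicate 2, the dog with the least alpha transcript, and its groups overlapped. BLVRB, a reductase of the heme breakdown pathway, was lowest in control replicate 3 at 296 FPKM and between 756 and 1967 FPKM in the others. PRDX2, an abundant peroxidase of red cells, was at 163 ± 61.8 and 119 ± 69.8 FPKM (SD, n = 3).

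The reticulocyte maturation list had the highest median of the red cell lists, 0.48, with 8 of 9 tested genes above 0. An unadjusted p under 0.05 was reached by 1 of the 9, against 16.0% of all genes tested, and the groups did not overlap for 2 of the 9, against 23.0%. UBE2O, an enzyme that tags unassembled alpha globin and ribosomal proteins for degradation in reticulocytes, was at 22.9, 28.4 and 21.7 FPKM across the control animals and 52.1, 41.5 and 70.9 FPKM across the CPP-Se animals. The groups did not overlap, and the log2 fold change was 1.11 with a standard error of 0.24 and an adjusted p of 0.138 (limma). TENT5C, a poly(A) polymerase, did not overlap either, with 16.8, 15.8 and 13.5 FPKM against 22.2, 17.4 and 76.2 FPKM, a log2 fold change of 0.98, a standard error of 0.49 and an adjusted p of 0.378 (limma). Without CPP-Se replicate 3, its highest dog, the log2 fold change was 0.34. TRIM58, a ubiquitin ligase of late red cell precursors, was at 15.1 ± 5.03 and 15.9 ± 6.63 FPKM (SD, n = 3). Summed hemoglobin FPKM over the summed FPKM of this list was 1474, 1544 and 1757 across the control animals and 1188, 660 and 801 across the CPP-Se animals. This ratio was formed after the values were seen and was given no test.

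**Figure D5:**
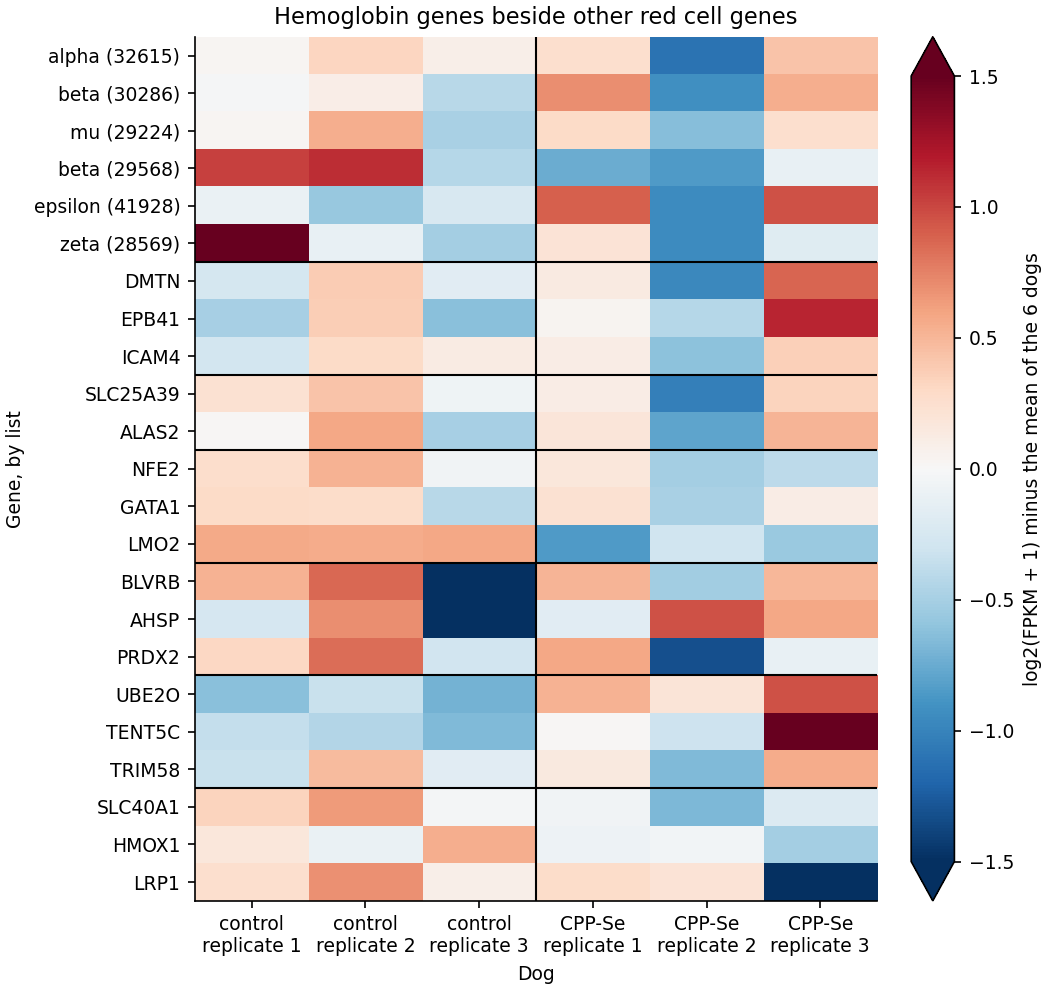
log2(FPKM + 1) minus the mean of the 6 dogs (colour) for the 6 tested hemoglobin genes and the 2 or 3 most abundant genes of each of 6 lists, by dog. CPP-Se replicate 2 lies below the mean (toward blue) in every row but AHSP, UBE2O and LRP1. It is farthest below for PRDX2 at -1.32 and farthest above for AHSP (red). Colours are cut at 1.5 above and below the mean.

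Markers of the other blood cells are given beside these values, and their part in the hemoglobin results was not tested. All 6 T cell markers and all 6 B cell markers tested had a log2 fold change above 0, with medians of 0.81 and 0.64. The 5 monocyte markers tested were all below 0 with a median of -0.82, and 6 of the 7 neutrophil markers were below 0 with a median of -0.80. Platelet markers had a median of -0.23 over 5 genes. The unadjusted p was under 0.05 for 4 T cell, 3 B cell, 4 monocyte, 5 neutrophil and 0 platelet markers, against 16.0% of all genes tested, and 0 of these markers passed the thresholds in limma. The summed FPKM of the T cell markers ran from 73.5 to 133 across the control animals and from 153 to 206 across the CPP-Se animals, that of the monocyte markers from 333 to 448 and from 220 to 240. The B cell sums ran from 269 to 386 and from 398 to 451, the neutrophil sums from 2258 to 3031 and from 1750 to 2246, and the platelet sums from 716 to 1532 and from 513 to 1781. No listed marker of these 5 cell types that was in the table was at 0 in every dog.

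The genes whose levels varied most like the hemoglobin genes were found by the root mean square difference of log2(FPKM + 1), centred on the mean of the 6 dogs, among 9841 other genes tested. Nearest to the summed hemoglobin genes were GTF3A (0.07), CISD2 (0.10), MIOX (0.13), SLC25A39 (0.14) and CHMP4B (0.15), against a standard deviation of 0.50 of the summed profile itself. GTF3A, CISD2 and MIOX were also nearest to the alpha gene. Nearest to the main beta gene were an unnamed transcript without an Ensembl ID (0.15), MPG, a DNA repair glycosylase (0.19), and SLC48A1, a heme transporter (0.19). HBM lay nearest to CD82 (0.09), RHBDF1 (0.11) and ENSCAFG00000037651 (0.11). The short beta gene lay nearest to MT2A (0.21), ENSCAFG00000032122 (0.22) and ENSCAFG00000005768 (0.22). The genes nearest to epsilon were ENSCAFG00000047865 (0.16), CSTB (0.17) and ENSCAFG00000024643 (0.20), and those nearest to zeta on chromosome 6 were ENSCAFG00000014432 (0.28), ENSCAFG00000019812 (0.38) and ENSCAFG00000002723 (0.40). These likenesses rest on 6 dogs, in which the low level of CPP-Se replicate 2 weighs heavily, and all values share the scaling of each library.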

How the data were processed

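Poly(A)-enriched NEBNext Ultra libraries of whole blood from 3 dogs per group were sequenced. The submitters' processing notes name CASAVA 2.19, fastp 0.19.7, HISAT2 2.0.5 and featureCounts 1.5.0-p3, and the study's methods name the dog genome of Ensembl release 100 and StringTie. The authors deposited FPKM per gene, computed from gene length and mapped reads; the library size behind the FPKM, strand use and the handling of shared reads are not given in the sources used here. The other columns of the table describe genes, and 0 columns belong to other samples.

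Each FPKM times its gene length, over the smallest step in that library, gave whole numbers within 0.01 for 100% of values, taken as reads (6598173 to 8067034 per dog). Shares of reads carry exact binomial intervals, and 3 reads were the floor for a count of 0. Genes averaging 1 FPKM or more (9847 of 31512) were tested on log2(FPKM + 1) in limma 3.58.1 (R 4.3.3; lmFit, eBayes with trend, two-sided, Benjamini-Hochberg adjustment over all of them), with thresholds of an adjusted p under 0.05 and a fold of 1.5. Log2 fold changes understate changes of low genes. Shares and ratios were compared by exact permutation of 3 against 3 dogs (Python 3.11.15, scipy 1.17.1, numpy 2.4.6, pandas 2.3.3), and figures were drawn with matplotlib 3.10.9. The read recovery, the permutation test and the limma step were tested on simulated data.

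All 8 hemoglobin genes are named, with the genes past the thresholds or else the 3 most abundant of each other red cell list, the nearest genes by profile and the neighbours of the clusters. Of the genes this covers, 1 is not reported here. Members and lists were chosen with earlier results of these data known. Groups and replicate numbers come from the sample titles. The alternatives were another pseudocount (0.1), other filters, 3 other scalings, eBayes without a trend, robust eBayes, limma-voom, a replicate block and leaving out each dog; limma-voom with sample quality weights was chosen after the data were seen. Of the other scalings, median-of-ratios size factors lay close to the scaling of the deposited FPKM and nearly repeated the main fit, with 3 calls in each. No sequences are printed, and RefSeq was used for gene order only.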

Additional observations from a re-analysis of the deposited data

How the results depend on the processing

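The count of hemoglobin genes past the thresholds was 0 under all alternatives but limma-voom with sample quality weights, which was chosen after seeing the data and called 1 (the short beta gene). The whole table had 3 calls, and 0 with a pseudocount of 0.1 FPKM, 0 with no filter, 1 with a mean of at least 5 FPKM, 26 with scaling by all reads on genes (18 higher and 8 lower), 50 with limma-voom (32 and 18), 1 with a replicate block, 687 with quality weights (331 and 356) and 0 to 14 without 1 dog, the 14 without CPP-Se replicate 2. The median log2 fold change of all genes was -0.0043, and 0.12 when scaled by all reads on genes, 0.10 when scaled by reads outside the hemoglobin genes and 0.15 in limma-voom. Listed genes past the thresholds numbered 2 with limma-voom, 20 with quality weights and 0 to 1 without 1 dog. HBM turned to 0.082 when scaled by all reads, 0.065 by reads outside hemoglobin, 0.084 in limma-voom and 0.11 with quality weights, where the alpha gene turned to 0.014. Without 1 dog each, log2 fold changes ran from -0.57 to 0.20 for the alpha gene, -0.078 to 0.73 for the main beta gene and -0.32 to 0.24 for HBM; the group difference in the share of reads ran from -4.65 to 4.997 percentage points for all hemoglobin genes, -6.46 to 1.79 for the alpha gene and -0.109 to 0.161 for HBM, whose log2 ratio to all hemoglobin reads ran from -0.068 to 0.31. LMO2 and UBE2O passed the thresholds with quality weights only (-1.39 and 1.15). The cause of these shifts was not tested. Dogs with the same replicate number shared only a number (correlations of their deviations 0.02, -0.09 and -0.04). No dog correlated best with its own number. In this balanced design a replicate block cannot change a log2 fold change, so that of the short beta gene stayed at -1.14. Its unadjusted p was 0.0506 with the block and its adjusted p 0.364 (limma), against 0.0308 and 0.269 without it. The block added or ended no call among the hemoglobin genes. Depth limits the epsilon, zeta genes and the beta gene ENSCAFG00000041337.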

Other observations

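Genes beside the alpha cluster on chromosome 6 varied with the hemoglobin genes to different degrees. NPRL3, whose introns hold the distal control elements of the alpha globin genes in mammals, begins 8785 bases beyond the cluster and was at 1.95, 2.33 and 2.00 FPKM in the control dogs and 2.70, 1.32 and 3.28 FPKM in the CPP-Se dogs. By the root mean square difference of centred log2(FPKM + 1), it ranked 149 of 9841 genes in likeness to the alpha gene and 93 to the main beta gene. MPG, 46432 bases beyond the cluster, ranked 2 in likeness to the main beta gene, and 1159 to the alpha gene. RHBDF1, 51825 bases beyond it, ranked 2 in likeness to HBM, 138 to the main beta gene and 221 to the alpha gene. It lay between 1.22 and 4.29 FPKM, a low level at which adding 1 narrows the variation. LUC7L, inside the span of the alpha gene, ranked 1040 in likeness to it, and FAM234A, which overlaps that span in part, ranked 4623. POLR3K and SNRNP25, taken up after their values were seen, ranked 114 and 290. At chromosome 21 the nearest listed gene after the beta cluster, the olfactory receptor gene OR51B4, was at 0 FPKM in all dogs.

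Of the genes that clear hemoglobin and break down heme, 6 were tested, 2 above and 4 below 0, with a median log2 fold change of -0.52 against -0.0043 over all genes, and 0 passed the thresholds in limma while 2 had an unadjusted p under 0.05, against 16.0% of all genes tested. These were SLC40A1 and, named after its values were seen, CD163, the macrophage receptor for hemoglobin bound to haptoglobin, at 1.31, 2.42 and 1.36 FPKM across the control animals and 0.622, 0.660 and 0.0814 FPKM across the CPP-Se animals (log2 fold change -0.89, standard error 0.31, limma adjusted p = 0.240). All 5 monocyte markers tested were also below 0, with a median of -0.82, and the part of these cells in the values of this list was not tested. SLC40A1, the iron exporter ferroportin, was at 36.7, 45.6 and 28.3 FPKM in the control dogs and 27.9, 17.8 and 25.1 FPKM in the CPP-Se dogs, without overlap, as for 23.0% of all genes tested (log2 fold change -0.62, standard error 0.25, limma adjusted p = 0.282). HMOX1, which opens the heme ring, was at 23.4 ± 5.53 and 17.2 ± 3.13 FPKM, and LRP1, a receptor for heme bound to hemopexin, at 20.96 ± 4.89 and 14.4 ± 8.15 FPKM (SD, n = 3). HP and HPX were not analysed here. Of the other vertebrate globins, MB, CYGB and ADGB were listed at 0 in every dog, and NGB had at most 3 reads.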
